A study of Mus musculus with 9 samples.

Results

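The miR-181 family of the mouse was examined in small RNA libraries of quadriceps muscle. Its members were chosen by name, as the 7 mature miRNAs mmu-miR-181a-5p, mmu-miR-181b-5p, mmu-miR-181c-5p, mmu-miR-181d-5p, mmu-miR-181a-1-3p, mmu-miR-181a-2-3p and mmu-miR-181c-3p (written below without the prefix for mouse), out of 1966 mature miRNAs in the deposited table. Another 3 entries carry the family name (miR-181b-1-3p, miR-181b-2-3p and miR-181d-3p) and are described by their counts, and miR-181b-2-3p also by its ratio to miR-181b-5p. The study asked how the loss of MBNL1 or MBNL2, RNA-binding proteins that regulate alternative splicing, alters the miRNAs of muscle. The groups were 3 WT mice (C57BL/6J, Mbnl1+/+ Mbnl2+/+), 3 Mbnl1KO mice (C57BL/6J, Mbnl1 ΔE3/ΔE3, Mbnl2+/+) and 3 Mbnl2KO mice (Mbnl1+/+, of the strain B6.C-Tg(CMV-cre)1Cgn/J). All mice were 90 days old by the labels. In Mbnl2KO the labels give Mbnl2 ΔE2/ΔE2, ΔE2/ΔE3 and ΔE2/ΔE4 for replicates 1, 2 and 3, and these mice were treated as 1 group. The paper instead gives a single Mbnl2 genotype, WT littermates and an age in weeks that is slightly lower, and which is right is not settled here. By the labels, strain and Cre transgene go with the group in Mbnl2KO, so that they cannot be told apart from the loss of Mbnl2.

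A miRNA is cut from a hairpin precursor into a 5p and a 3p arm, and 1 arm is usually kept as the guide while the other is mostly degraded. Targets are recognised mainly through the seed, the bases near the 5′ end. The 5p arms are the usual guides of the miR-181 family, which is known for setting the sensitivity of T cell receptor signalling and for rising as myoblasts differentiate, where it lowers the homeobox protein Hox-A11.

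The mature sequences are shown because the seed defines the family and because only the 3p arms tell the chromosome 1 and chromosome 2 loci apart. They were taken from RefSeq (GRCm38.p6), and all 7 members were matched. Capitals mark the seed, bases 2 to 8 from the 5′ end. The 4 guide arms share 1 seed:
miR-181a-5p: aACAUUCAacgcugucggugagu
miR-181b-5p: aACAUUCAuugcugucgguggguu
miR-181c-5p: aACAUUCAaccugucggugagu
miR-181d-5p: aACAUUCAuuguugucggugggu

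The 3p arms of the family carry other seeds:
miR-181a-1-3p: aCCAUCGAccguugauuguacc
miR-181a-2-3p: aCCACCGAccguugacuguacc
miR-181c-3p: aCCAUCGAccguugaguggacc

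None of the 1679 mature miRNAs of the RefSeq table outside the family had any of these seeds. Counted from the 5′ end, miR-181a-1-3p differs from miR-181a-2-3p by U5C, which lies in the seed, and by U16C. It differs from miR-181c-3p by U16G and U19G and shares its seed. Among the guides, miR-181a-5p and miR-181c-5p are 1 edit apart, and reads of such close copies may have been divided unequally by the counting.

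The family comes from 6 precursor genes in pairs on 3 chromosomes, placed here on GRCm39 with the GENCODE annotation. Mir181a-1 (chr1:137894193-137894279) and Mir181b-1 (chr1:137894377-137894456) lie 97 bases apart on the plus strand, in exons of at least 1 transcript of the long noncoding RNA Mir181a-1hg. Mir181a-2 (chr2:38742747-38742822) and Mir181b-2 (chr2:38743842-38743930) lie 1019 bases apart on the plus strand, in an intron of the noncoding RNA Nr6a1os and opposite an intron of Nr6a1. Mir181c (chr8:84905502-84905590) and Mir181d (chr8:84905345-84905416) lie 85 bases apart on the minus strand, in an intron of Nanos3. The chromosome 1 and chromosome 2 pairs yield the same miR-181a-5p and the same miR-181b-5p, so the counts of these guides pool both loci. Mir181a-1 alone yields miR-181a-1-3p, and Mir181a-2 alone yields miR-181a-2-3p.

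MBNL proteins are known to bind UGC and CGC steps, and the words UGCU or UGCC and, with another first base, CGCU or CGCC were looked for on the transcribed strand of the hairpins. Of the 5 family hairpins in the RefSeq table, 4 held at least 1 of these words, against 71.3% of 341 hairpins of 72 to 89 bases. None of the words lay in a loop between the arms. The loops of the hairpins that yield miR-181a are shown because they separate arms of nearly the same sequence:
Mir181a-1 loop: uuggaauucaaauaaaa
Mir181a-2 loop: uugggauucaaaaacaaaaaa

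Between 4761271 and 6277018 reads were counted per library, and miR-1a-3p, the leading muscle miRNA, took 61.4% to 73.7% of them. The depth for the family was therefore set by the remainder. Of the muscle markers, miR-1a-3p and miR-133a-3p had the highest counts, while miR-486a-5p was listed at 0 in all libraries and cannot be ranked. Of 11 markers of immune and blood cells, 2 were listed at 0 in all libraries (miR-142a-3p and miR-338-3p), and the normalized counts of the list summed to 3086 to 3491 in the WT libraries, to 3204 to 3900 with Mbnl1 lost and to 3266 to 3562 with Mbnl2 lost. All 4 endothelial markers (the arms of miR-126a and miR-126b) were listed at 0 and cannot report on that cell type here. In whole muscle, fewer cells of a type and less RNA per cell cannot be told apart.

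Levels are given as normalized counts, scaled over all 9 libraries by TMM, and not per length, as the mature members are all 22 to 24 bases long. miR-181a-5p was the dominant member, with 8030 ± 116 in WT, 8170 ± 1791 in Mbnl1KO and 8039 ± 756 in Mbnl2KO (SD, n = 3). It ranked between 27 and 34 among all miRNAs of a library. In WT it was followed by miR-181b-5p (1831 ± 37.6), miR-181a-2-3p (1056 ± 162), miR-181c-5p (154 ± 12.5) and miR-181d-5p (50.8 ± 11.9). The least abundant were miR-181a-1-3p (16.4 ± 4.5) and miR-181c-3p (4.2 ± 3.9). Neighbours in this order did not overlap between libraries of 1 group. The order was the same in Mbnl2KO, while in Mbnl1KO miR-181c-3p (11.3 ± 2.3) stood above miR-181a-1-3p (4.0 ± 0.8).

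**Figure D1:**
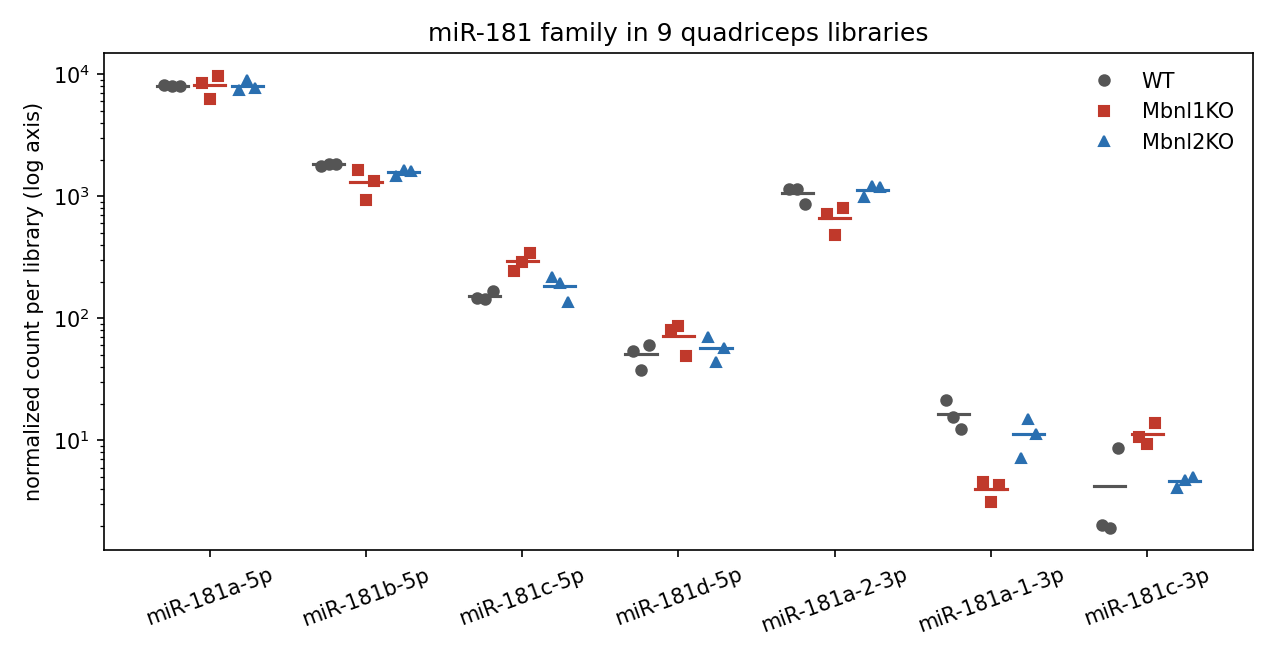
Normalized count (log axis) of each miR-181 member in each of 9 quadriceps libraries, with points for libraries and a line at the mean of 3 libraries per group. miR-181a-5p has means of 8030, 8170 and 8039, the Mbnl1KO libraries lie below WT for miR-181b-5p and both miR-181a 3p arms, and above WT for miR-181c-5p.

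In Mbnl1KO muscle, the chromosome 2 arm miR-181a-2-3p and the guide miR-181b-5p fell against WT, and the guide miR-181c-5p rose. Both falls, but not the rise, lost their call with library totals as scaling. The rare chromosome 1 arm miR-181a-1-3p was also called as lower. Of the 7 members, 6 passed the filter on low counts (a mean normalized count above 10) and 4 were called by edgeR's quasi-likelihood test at an adjusted p under 0.05. Of all 317 miRNAs tested, 33.1% were called, 18.9% as higher and 14.2% as lower. miR-181a-1-3p passed the filter only through WT, where it was high, so its call is set apart and the count of members that passed is a description. When edgeR was run with no filter, all 7 members were fitted and 4 were called, against 10.8% of 846 miRNAs, many of which have few counts. Their median log2 fold change was then -0.05, and that of all miRNAs fitted was 0.06.

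The dominant guide miR-181a-5p had 8164, 7969 and 7957 normalized counts in WT and 8533, 6226 and 9752 in Mbnl1KO. The WT libraries lay close together and inside the range of the knockout, which was wide. The log2 fold change was -0.05 (SE 0.147, 95% interval -0.34 to 0.24, edgeR adjusted p = 0.818). Its sign turned with library totals as scaling (0.27) and without Mbnl1KO replicate 2 (0.13), with no call in either.

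The second guide, miR-181b-5p, had 1787, 1851 and 1854 normalized counts in WT against 1629, 936 and 1340 in Mbnl1KO. All knockout libraries lay below all WT libraries, and replicate 2 was the lowest. Groups were apart in this way, in either direction, for 42.6% of all miRNAs tested and for 4 of the 6 members. It fell by 0.56 on the log2 scale (SE 0.156, edgeR adjusted p = 0.00246). Without Mbnl1KO replicate 2 the log2 fold change was -0.36 and the edgeR call was lost (adjusted p = 0.0573).

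The chromosome 2 arm miR-181a-2-3p had 1154, 1143 and 869 normalized counts in WT and 711, 484 and 804 in Mbnl1KO. The groups did not overlap. It fell by 0.74 on the log2 scale (SE 0.165, edgeR adjusted p = 0.000183). With library totals as scaling it was at -0.42 and not called (edgeR adjusted p = 0.0892).

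The chromosome 1 arm miR-181a-1-3p was far rarer, with 21, 16 and 10 raw counts in WT and 6, 3 and 5 in Mbnl1KO. The groups were apart in raw and in normalized counts. Its log2 fold change was -2.06 (SE 0.474, edgeR adjusted p = 0.000254), from sums of 47 and 14 counts. Its mean normalized count was 16.4 in WT and 4.0 in Mbnl1KO, so that it was admitted to the test by the WT libraries. Run with no filter, the edgeR adjusted p was 0.00103. Without WT replicate 1, or without WT replicate 2, it did not pass the filter and was not tested.

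The guide miR-181c-5p, from chromosome 8, had 148, 145 and 168 normalized counts in WT and 247, 292 and 345 in Mbnl1KO. Every knockout library was above every WT library. It rose by 0.87 on the log2 scale (SE 0.187, edgeR adjusted p = 8.62e-05). The other guide of that pair, miR-181d-5p, had 53.8, 37.7 and 60.9 in WT and 80.0, 86.8 and 49.4 in Mbnl1KO. These ranges overlapped and the log2 fold change was 0.44 (95% interval -0.12 to 1.01, edgeR adjusted p = 0.230). It was 0.24 without WT replicate 2 and 0.66 without Mbnl1KO replicate 3.

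The partner arm miR-181c-3p had 2, 2 and 7 raw counts in WT and 14, 9 and 16 in Mbnl1KO. It was under the filter on low counts, although its groups did not overlap. Fitted with no filter its log2 fold change was 1.43 (SE 0.572, edgeR adjusted p = 0.0946).

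Some of these calls depended on the scaling. With library totals in place of TMM the median log2 fold change of all miRNAs tested moved from -0.01 to 0.30. On that scale miR-181b-5p was at -0.23 (edgeR adjusted p = 0.369) and, like miR-181a-2-3p, without a call, while miR-181d-5p was called at 0.75 (adjusted p = 0.0436). miR-181a-1-3p and miR-181c-5p kept their calls there.

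In Mbnl2KO muscle no member was called against WT. Of the 6 members tested by edgeR, 0 had an unadjusted p under 0.05 and 0 were called by DESeq2. Of all 293 miRNAs tested, edgeR called 5.8%, 18.1% had an unadjusted p under 0.05, and DESeq2 called 6.48%. miR-181a-5p was at 7483, 8900 and 7735 normalized counts, with a log2 fold change of 0.00 (95% interval -0.25 to 0.24). miR-181b-5p was at 1478, 1633 and 1604, below every WT library, with a log2 fold change of -0.22 (95% interval -0.49 to 0.04, edgeR adjusted p = 0.391). Groups apart in this way were found for 24.9% of all miRNAs tested. miR-181a-2-3p was at 988, 1215 and 1187, within and above the WT range, with a log2 fold change of 0.09 (95% interval -0.22 to 0.40). miR-181c-5p was at 217, 195 and 137, and its log2 fold change of 0.26 had an interval of -0.13 to 0.65. It was 0.07 without Mbnl2KO replicate 1 and 0.41 without Mbnl2KO replicate 3. miR-181a-1-3p had 7, 16 and 9 raw counts and a log2 fold change of -0.56 (95% interval -1.45 to 0.34), which ranged from -0.83 to -0.30 with libraries left out. The lowest size was without WT replicate 1, and without Mbnl2KO replicate 1 it was -0.35. miR-181d-5p was at 70.3, 44.3 and 57.0 (log2 fold change 0.18), and miR-181c-3p had 4, 5 and 4 raw counts.

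The knockouts were compared with each other to test whether their effects differ. Of 5 members tested, 2 were called, against 26.9% of 309 miRNAs. miR-181a-2-3p was lower in Mbnl1KO than in Mbnl2KO, with a log2 difference of -0.81 (SE 0.179, edgeR adjusted p = 0.00395), and miR-181c-5p was higher in Mbnl1KO, by 0.63 (SE 0.204, edgeR adjusted p = 0.0291). The groups did not overlap for these 2 members, which held for 46% of all miRNAs tested. The edgeR call of miR-181c-5p was lost without Mbnl1KO replicate 2 (0.59, adjusted p = 0.0686), Mbnl1KO replicate 3 (0.51, adjusted p = 0.130) or Mbnl2KO replicate 3 (0.41, adjusted p = 0.169). That of miR-181a-2-3p was kept whichever of the 6 libraries was left out. With library totals the median of all miRNAs tested moved from 0.07 to 0.36, and miR-181a-2-3p was at -0.51 without a call (edgeR adjusted p = 0.0915). For miR-181b-5p the difference was -0.32 (95% interval -0.69 to 0.05, edgeR adjusted p = 0.184), and it moved with the libraries and the scaling. It was called at -0.51 without Mbnl1KO replicate 1 (edgeR adjusted p = 0.0468), and was at -0.17 without Mbnl1KO replicate 2 (adjusted p = 0.353) and at -0.0074 with library totals (adjusted p = 0.987). miR-181a-1-3p, which was under the filter here, was at -1.46 when fitted with no filter (edgeR adjusted p = 0.149).

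**Figure D2:**
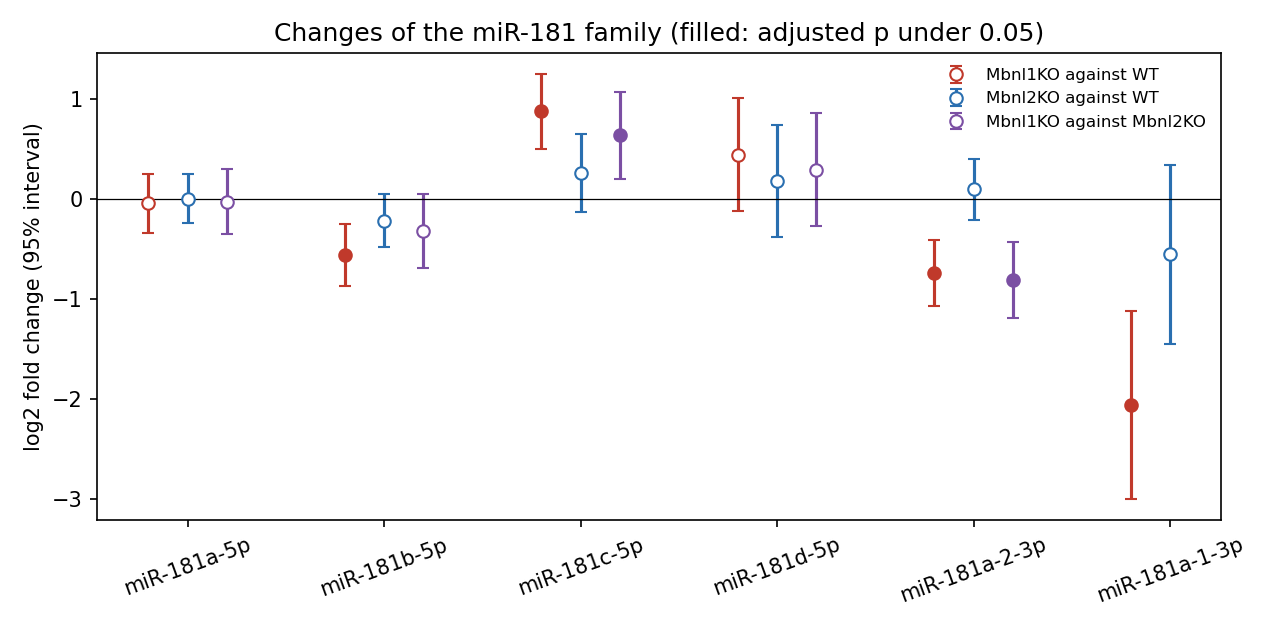
Log2 fold change with its 95% interval from edgeR for the members tested in each of 3 comparisons, where filled points have an adjusted p under 0.05. miR-181c-5p is above 0 and miR-181b-5p, miR-181a-2-3p and miR-181a-1-3p are below 0 in Mbnl1KO against WT, and no point is filled in Mbnl2KO against WT.

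Ratios of 2 miRNAs within a library need no scaling, and were used to compare the arms and the loci. Each was tested with limma on log2 ratios, over 124 pairs of arms or of loci in Mbnl1KO against WT, of which 7.26% were called. For each 100 counts of miR-181a-5p there were 14.1, 14.3 and 10.9 counts of miR-181a-2-3p in WT, and 8.33, 7.78 and 8.25 in Mbnl1KO. The knockout libraries lay close together below all WT libraries, and pairs of other miRNAs were also apart between these groups. The log2 ratio was lower by 0.68 in Mbnl1KO (difference -0.68, SE 0.147, limma adjusted p = 0.00144). In Mbnl2KO there were 13.2, 13.7 and 15.3 counts per 100, and the difference from WT was 0.11 (limma adjusted p = 0.839). Between the knockouts the difference was -0.79 (SE 0.136, limma adjusted p = 8.37e-05), where 9.92% of 121 pairs were called.

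The chromosome 1 arm was also compared with the guide. There were 0.261, 0.194 and 0.156 counts of miR-181a-1-3p per 100 of miR-181a-5p in WT and 0.0541, 0.0504 and 0.0444 in Mbnl1KO. The difference of log2 ratios was -1.90 (SE 0.495, limma adjusted p = 0.00877). Pairs were tested where the rarer miRNA had a mean above 5 counts, which miR-181a-1-3p passed through WT but not in Mbnl1KO alone. With a mean above 1 count, which it passed in each group, the limma adjusted p was 0.0145. At the stated filter the call was lost without WT replicate 1 (adjusted p = 0.107) or WT replicate 2 (adjusted p = 0.0527). In Mbnl2KO the counts per 100 were 0.0953, 0.169 and 0.147, and the difference from WT was -0.55 (limma adjusted p = 0.685), or -0.32 without Mbnl2KO replicate 1 and -0.37 without WT replicate 1. With 3 libraries per group the smallest p of an exact two-sided permutation test is 0.1, which both arm ratios gave in Mbnl1KO against WT. Pairs of other miRNAs gave it too, so this value does not set the miR-181a arms apart. In limma without a trend of the variance on the level, the ratio of miR-181a-2-3p to the guide was not called in Mbnl1KO against WT (adjusted p = 0.204) or between the knockouts (adjusted p = 0.0675).

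The chromosome 1 and chromosome 2 loci were compared through the share of miR-181a-1-3p among the counts of both miR-181a 3p arms. This describes the 3p arms only, and how much miR-181a-5p each locus yields was not tested. The share was 1.81% (95% Wilson interval 1.19 to 2.75), 1.33% (0.822 to 2.15) and 1.41% (0.768 to 2.58) in WT. In Mbnl1KO it was 0.644% (0.296 to 1.40), 0.644% (0.219 to 1.88) and 0.536% (0.229 to 1.25). These intervals cover counting error only, and although the shares did not overlap between the groups, the intervals of single libraries did. The difference of log2 ratios between the arms was -1.22 (SE 0.493), with an unadjusted limma p of 0.0185 that did not pass the adjustment over all pairs (limma adjusted p = 0.135). This pair too was admitted through the WT counts. The exact permutation test gave 0.1, its smallest p, as it did for pairs of other miRNAs. Without a trend in limma the adjusted p was 0.0427. In Mbnl2KO the share was 0.716%, 1.23% and 0.951%, with a difference of -0.66 from WT (limma adjusted p = 0.576). These shares lay below every WT library, and pairs of other miRNAs were also apart between these groups. Of all 114 pairs in that comparison limma called 0, and 15 (13.2%) had an unadjusted p under 0.05. Between the knockouts the difference was -0.56 (limma adjusted p = 0.523).

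**Figure D3:**
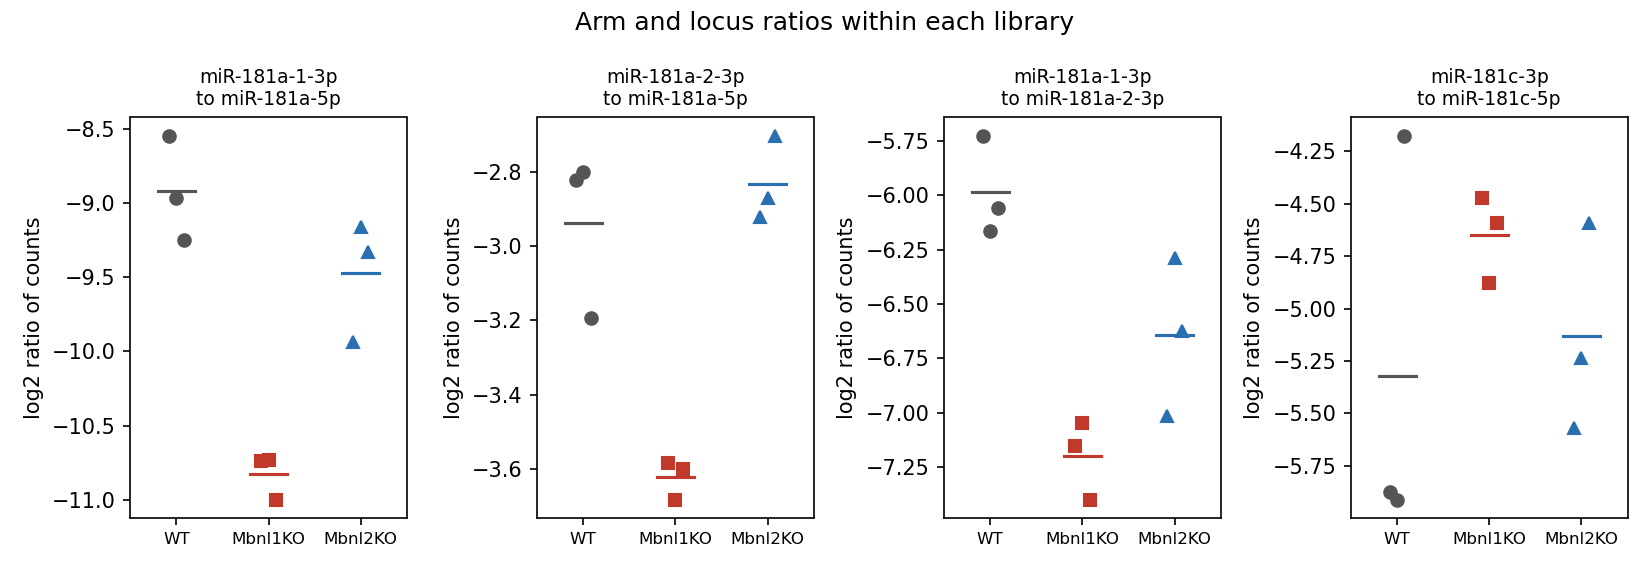
Log2 ratio of counts (pseudocount 0.5) within each library for the miR-181a arms, the loci on chromosomes 1 and 2, and the miR-181c arms, with a line at each mean of 3 libraries. In the panels of miR-181a-1-3p and miR-181a-2-3p to miR-181a-5p all Mbnl1KO libraries lie below all others, while the ratio of miR-181c-3p to miR-181c-5p overlaps between groups.

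The ratio between the arms of miR-181c was not called in Mbnl1KO against WT. There were 1.37, 1.33 and 5.19 counts of miR-181c-3p per 100 of miR-181c-5p in WT and 4.36, 3.23 and 4.02 in Mbnl1KO. These overlapped, and the difference of log2 ratios was 0.67 (SE 0.589, limma adjusted p = 0.561), from 0.38 without WT replicate 2 and 0.40 without WT replicate 1 to 1.24 without WT replicate 3. For the arms miR-181b-2-3p and miR-181b-5p it was also 0.67 (SE 0.686, limma adjusted p = 0.634). miR-181b-2-3p had only 6, 9 and 1 raw counts in WT, 9, 3 and 6 in Mbnl1KO and 7, 5 and 7 in Mbnl2KO. miR-181b-1-3p had 2, 2 and 0 counts in WT, 0, 1 and 0 in Mbnl1KO and none in Mbnl2KO, and miR-181d-3p was listed at 0 in all libraries. With so few counts, nothing was concluded on changes of miR-181b-1-3p and miR-181b-2-3p. Since miRNAs abundant in muscle, such as miR-486a-5p, are also listed at 0, nothing was read from the 0 of miR-181d-3p.

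The make-up of the shared-seed guides is given as a description, since it follows from the same counts. The summed normalized count of the 4 guides was 10065 ± 78.2 in WT, 9838 ± 2051 in Mbnl1KO and 9851 ± 811 in Mbnl2KO (SD, n = 3). miR-181b-5p made up 17.6% to 18.5% of the counts of the 4 guides in WT. Its share was 11.7% to 15.5% in Mbnl1KO, and in Mbnl2KO it was 15.2% to 16.8%. The chromosome 8 guides miR-181c-5p and miR-181d-5p together made up 1.82% to 2.28% in WT. Their share was 3.12% to 5.02% in Mbnl1KO, and in Mbnl2KO it was 2.03% to 3.105%. For miR-181b-5p the shares of all Mbnl1KO and all Mbnl2KO libraries lay below the WT range. For the chromosome 8 guides those of all Mbnl1KO libraries lay above it and those of Mbnl2KO overlapped it, and the sums overlapped between groups.

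**Figure D4:**
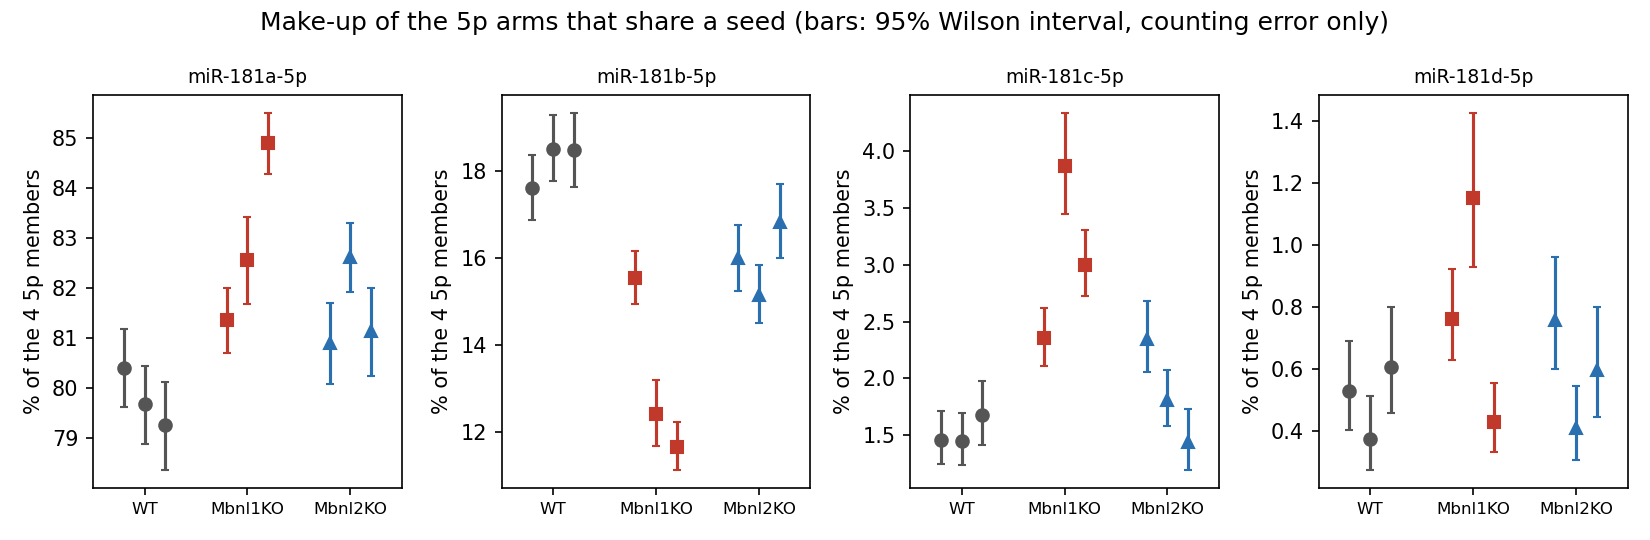
Percent of the summed counts of the 4 guide arms taken by each, per library, with 95% Wilson intervals that cover counting error only. In Mbnl1KO miR-181b-5p lies at 11.7% to 15.5%, below WT at 17.6% to 18.5%, and miR-181c-5p at 2.35% to 3.87%, above WT at 1.45% to 1.67%.

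Other miRNAs known in the same processes were taken from lists. Of 21 miRNAs of myogenic differentiation and regeneration, 17 were tested in Mbnl1KO against WT, with 5 higher and 2 lower, where 18.9% of all miRNAs tested were higher and 14.2% lower. Their median log2 fold change was 0.31, and that of all miRNAs tested was -0.01. Of this list, miR-24-3p and miR-486a-5p were listed at 0 in all libraries. Among its most abundant members miR-133a-3p, which promotes myoblast proliferation, was at 0.03, and miR-26a-5p at -0.25, both without a call. miR-1a-3p, which promotes differentiation, was at -0.40 (edgeR adjusted p = 0.0502). Of 14 regulators of T cells and haematopoiesis, 13 were tested, with 2 higher and 4 lower, a median of -0.07, and miR-142a-3p listed at 0. miR-125b-5p of that list fell by 0.42 on the log2 scale (edgeR adjusted p = 0.0178), while miR-125a-5p was at -0.07 and miR-29a-3p at -0.09. In Mbnl2KO against WT each of these lists had 1 member higher and 0 lower by edgeR, where 5.8% of all miRNAs tested were called.

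Markers of other cells were read in the same fits, and their part in the changes of the family was not tested. Of 8 immune and blood markers tested in Mbnl1KO against WT, 1 was higher and 3 were lower, to be read against 33.1% of all miRNAs called. miR-155-5p rose by 0.86 on the log2 scale (edgeR adjusted p = 1.02e-05), miR-146a-5p fell by 0.49 (adjusted p = 0.0136), and miR-150-5p was at 0.00. Of 9 markers of vessel wall and connective tissue, 0 were higher and 1 was lower by edgeR, with miR-21a-5p at -0.09, miR-143-3p at 0.27 and miR-145a-5p at 0.17. Of 6 muscle markers tested, 2 were higher and 1 was lower, with a median log2 fold change of 0.37 against -0.01 for all miRNAs tested. The one that fell, miR-378a-3p, was at -1.30 (edgeR adjusted p = 2.36e-12). Those that rose, named after their values were seen, were miR-206-3p at 1.93 (edgeR adjusted p = 4.37e-21) and miR-133b-3p at 0.71 (adjusted p = 0.0172). The normalized counts of the muscle list, most of which are miR-1a-3p, summed to 4594715 to 4880870 in WT and were lower in every Mbnl1KO library, at 3274019 to 4190392. The Mbnl2KO libraries, at 4013677 to 5526675, overlapped both.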

How the data were processed

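The authors deposited raw counts of reads per mature miRNA, 1 entry for each of 1966 miRNAs, from libraries made with the NEXTflex small RNA kit. For these knockouts the paper's methods describe clipping adapters, collapsing reads, matching them to miRBase precursors without mismatches and summing those within each mature miRNA and a small margin. Whether the deposited table was made in exactly this way is not settled, and reads shared by near-identical members may be divided unequally. Nothing was realigned, and 1057 entries without a read were not fitted.

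Pairwise comparisons (3 libraries against 3) were made with edgeR 4.0.16 (robust quasi-likelihood test, TMM, Benjamini-Hochberg adjustment over all miRNAs tested) where the normalized count averaged above 10, in R 4.3.3. The threshold was an adjusted p of 0.05. Log2 ratios between arms and between loci (pseudocount 0.5, mean count of the rarer miRNA above 5) were tested with limma 3.58.1. DESeq2 1.42.0 was an alternative. Levels, sequences and figures were handled in Python 3.11.15. Tests were run on simulated data first. At a true log2 change of 1, edgeR recovered 85.7% and the limma ratio test 50%. Of their calls 6.17% and 4.44% were false, and 8.43% of those of DESeq2. Each library is a mouse by the study's description. The p-values rest on the spread between these 3 mice per group, with variance estimates that also borrow from all miRNAs or pairs tested. The members and lists were chosen with earlier results of these data known. Every family entry was named, with the 3 most abundant members of each list and the 3 miRNAs most like each of 6 members. The alternatives were other scalings, filters, thresholds and pseudocounts, all libraries in 1 fit, the replicate block and each library left out.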

Additional observations from a re-analysis of the deposited data

Results flagged for a closer look

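The effects of the knockouts differed for 2 members and 1 arm ratio in the direct comparison of Mbnl1KO with Mbnl2KO, of 5 members tested, where 26.9% of all miRNAs and 9.92% of all pairs were called. miR-181a-2-3p differed by -0.81 (log2, edgeR adjusted p = 0.00395), with Mbnl1KO lower in all 3 libraries than in any Mbnl2KO library, but was not called with library totals (edgeR adjusted p = 0.0915). miR-181c-5p differed by 0.63 (edgeR adjusted p = 0.0291), with Mbnl1KO higher in all 3 libraries, and kept its call in 3 of 6 fits that left out a library (edgeR adjusted p up to 0.169). The log2 ratio of miR-181a-2-3p to miR-181a-5p differed by -0.79 (limma adjusted p = 8.37e-05), with Mbnl1KO lower in all 3 libraries, but was not called in limma without trend (adjusted p = 0.0675). By the labels, strain and Cre transgene also differ between these groups and cannot be told apart from the knockouts.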

How the results depend on the processing

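The number of members called stayed between 3 and 5 in Mbnl1KO against WT and at 0 in Mbnl2KO against WT under the 15 alternatives of each comparison. Over all miRNAs tested, 68 to 115 and 6 to 23 were called in these comparisons. The count for Mbnl1KO includes miR-181a-1-3p, which was admitted through WT and tested in 12 of the 15 alternatives. Between the knockouts the number of members called was 1 with library totals and 1 at a threshold of 0.01. It ranged from 1 to 3 with libraries left out. Of the arm ratios in Mbnl1KO against WT, 1 in place of 2 was called with a mean above 20 counts, where miR-181a-1-3p was not tested. In limma without trend 1 was called, and 1 to 2 with libraries left out. The locus ratio in Mbnl1KO against WT was -1.22 and called in limma without trend.

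Signs turned only for values without a call, in the alternatives run. For miR-181a-5p in Mbnl1KO against WT the log2 fold change was 0.27 with library totals, 0.016 with totals without miR-1a-3p, and -0.19 to 0.13 with libraries left out. In Mbnl2KO against WT it was 0.0041 with library totals and -0.055 to 0.030 with libraries left out. Between the knockouts it was 0.26 with library totals, 0.031 with totals without miR-1a-3p, and -0.17 to 0.094 with libraries left out. With libraries left out in Mbnl2KO against WT, miR-181d-5p ranged from -0.053 to 0.37, miR-181a-2-3p from -0.037 to 0.18, and the ratio of miR-181a-2-3p to miR-181a-5p from -0.021 to 0.18. The ratio of miR-181b-2-3p to miR-181b-5p ranged from -0.028 to 0.91 in Mbnl1KO against WT and from -0.40 to 0.050 between the knockouts. The causes were not tested.

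With the replicate block 4 members were called in Mbnl1KO against WT, 0 in Mbnl2KO against WT and 2 between the knockouts, as without it, and no call of a member or ratio changed. Over all miRNAs the block gave 92, 21 and 80 calls. The numbers did not pair the samples: 2 of 9 same-numbered pairs had a correlation above 0.1, and 3 of 9 libraries correlated best with their own number. Over all miRNAs tested, 68 were called in Mbnl1KO against WT with a mean normalized count above 100, and 45 between the knockouts at 0.01. In Mbnl2KO against WT the count was 7 with library totals, 9 with a mean above 100, 6 at 0.01, and 6 to 23 with libraries left out. Depth limits miR-181a-1-3p, miR-181c-3p and the 3p arms of miR-181b.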

Other observations

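The miRNAs most like each member over the 9 libraries are given as a description, from the Pearson correlation of log2 normalized counts with 304 other miRNAs. The points share libraries, scaling and groups. miR-181c-5p was most like miR-376b-5p (r = 0.950), miR-434-5p (r = 0.936) and miR-381-3p (r = 0.935). miR-181a-2-3p was most like miR-125b-5p (r = 0.953), miR-193b-5p (r = 0.951) and miR-151-5p (r = 0.920), and miR-181a-1-3p most like miR-151-3p (r = 0.942), miR-92a-3p (r = 0.920) and miR-1843a-3p (r = 0.911). For miR-181b-5p they were miR-1a-1-5p (r = 0.909), miR-676-3p (r = 0.870) and miR-100-5p (r = 0.849). The guides that were not called had lower highest values, with miR-671-5p (r = 0.789), miR-423-5p (r = 0.767) and miR-1843b-3p (r = 0.734) for miR-181a-5p, and miR-221-3p (r = 0.797), miR-669c-5p (r = 0.784) and miR-132-3p (r = 0.758) for miR-181d-5p.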
